A study of Mus musculus with 6 samples.

Results

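Podosome actin assembly machinery was described through 40 genes, all of which were found among the 26529 rows of the deposited RNA-seq table by their gene symbol. The list holds cytoplasmic actin and its monomer-binding proteins, the Arp2/3 complex and its activators, and the proteins that sever, cap, crosslink, elongate or pull on actin filaments. The cells were bone marrow-derived macrophages grown from WT C57BL/6 mice that were 8 weeks old. The OC group held 3 libraries of osteoclasts, harvested on day 6 of culture, and the OCP group held 3 libraries of osteoclast precursors, harvested on day 3. Both groups had received M-CSF at 20 ng/ml, which keeps macrophages alive, and RANKL at 10 ng/ml, which turns them into osteoclasts, so that by the labels they differed in the day of culture alone. The labels name no transgene or deletion in either group. Whether the 3 libraries of a group came from separate mice or cultures is not stated, so a p-value reflects only how far these libraries spread, and that spread may be technical.

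Podosomes are the dot-like adhesion structures with which macrophages and osteoclasts hold on to a surface. Each has a core of branched actin filaments, nucleated by the Arp2/3 complex under the control of WASP, and a surrounding cloud of unbranched filaments crosslinked by alpha-actinin and pulled by myosin II. In an osteoclast on bone the podosomes gather into the sealing zone, the actin ring that encloses the site of resorption, and their cores last only minutes because severing and depolymerising proteins keep returning monomers to the pool.

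Between 33219178 and 42121216 reads per library were assigned to genes, with 33219178 to 38113266 in OC and 36740844 to 42121216 in OCP. Values are RPKM, reads scaled to the length of the gene and to the library's assigned reads, and a level given below is always RPKM. The markers of osteoclasts went against the order of the 2 labels. All 10 osteoclast markers on the list fell in OC in the fit across all genes, and their summed level was 2730 to 2815 RPKM in OC against 5104 to 5261 RPKM in OCP. Ctsk, the bone collagen-degrading cathepsin K, had 1711 ± 25.0 RPKM in OC and 3249 ± 108 RPKM in OCP (SD, n = 3 each). The groups are called OC and OCP after their labels throughout. Whether labels or columns were exchanged could not be settled from the sources used here, and if they were, every rise and fall given below would turn round. Of 9 tested macrophage and monocyte markers 7 rose and 2 fell in OC, with sums of 1470 to 1537 RPKM in OC and 1338 to 1410 RPKM in OCP. Of the 7 rises, 3 (Mrc1, Cx3cr1 and Ccr2) were of genes below 1 RPKM in every OCP library, which passed the filter on low values through OC alone and so could hardly have been counted without a rise. The rises that reached the filter in both groups were of Adgre1, Itgam, Cd14 and Mertk. Adgre1 averaged 258 RPKM in OC and 153 RPKM in OCP, and Itgam 248 RPKM in OC and 132 RPKM in OCP. Cd14 averaged 88.5 RPKM in OC and 36.7 RPKM in OCP, and Mertk 3.62 RPKM in OC and 2.25 RPKM in OCP. Cd68, the most abundant of the macrophage and monocyte markers, was among those that fell, at 721 ± 20.9 RPKM in OC and 854 ± 31.3 RPKM in OCP. Of 12 tested stress and immediate early genes 9 rose and 1 fell, with sums of 420 to 438 RPKM in OC and 214 to 230 RPKM in OCP. Among all tested genes 23.5% rose and 32.1% fell in OC. The part of the marker and stress genes in the results below was not tested.

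Markers of other cells were low with a few exceptions. The 3 tested neutrophil markers rose, their list summing to 49.1 to 53.4 RPKM in OC and 34.5 to 38.1 RPKM in OCP, with S100a9 at 31.9 ± 1.98 RPKM in OC and 23.2 ± 1.37 RPKM in OCP. Pf4, the single tested platelet and megakaryocyte marker of 8, rose to 89.2 ± 1.09 RPKM in OC against 36.1 ± 0.567 RPKM in OCP, and its list summed to 89.1 to 91.4 RPKM in OC and 36.2 to 37.3 RPKM in OCP. The 13 stromal and smooth muscle markers summed to 5.91 to 6.86 RPKM in OC and 6.11 to 6.58 RPKM in OCP, neither of the 2 tested passed, and Des was at 1.36 ± 0.110 RPKM in OC and 1.5 ± 0.150 RPKM in OCP. Of 3 tested mature dendritic cell markers 1 rose, Ccl22, at 5.49 ± 0.202 RPKM in OC and 3.36 ± 0.425 RPKM in OCP, and the list summed to 8.37 to 8.48 RPKM in OC and 6.49 to 8.11 RPKM in OCP. The lists of endothelial, B, T and NK, and erythroid cells each summed to at most 3.40 RPKM in any OC library and 4.26 RPKM in any OCP library. Their most abundant members were Kdr (1.54 ± 0.131 RPKM in OC, 1.75 ± 0.125 in OCP), Vpreb1 (2.91 ± 0.254 in OC, 3.8 ± 0.362 in OCP), Trac (1.26 ± 0.375 in OC, 1.81 ± 0.322 in OCP) and Hbb-bs (0.148 ± 0.130 in OC, 0.0901 ± 0.0832 in OCP). Of these 4 genes Vpreb1 fell in OC, Kdr and Trac did not pass, and Hbb-bs was too low to test. In RNA from whole cultures, fewer cells of a type and less RNA per cell cannot be told apart.

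The 2 cytoplasmic actins are the most abundant members, and their messages can be told apart by sequence although they encode nearly the same protein. The first 60 coding bases, from the start codon and read from GENCODE M21 transcripts on the GRCm38 build, are given here for Actb (chromosome 5, minus strand) and Actg1 (chromosome 11, minus strand), with the bases that differ between them in capitals.
Actb: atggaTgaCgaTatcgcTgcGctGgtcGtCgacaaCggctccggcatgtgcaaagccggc
Actg1: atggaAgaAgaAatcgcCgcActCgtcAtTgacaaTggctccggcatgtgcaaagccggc
In this stretch 9 bases differ. Over the 1128 coding bases of each gene 128 differ, an identity of 88.7%, and the longest run without a difference is 62 bases.

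Upstream sequence of some members is also printed, since several actin genes are textbook targets of serum response factor, which binds the CArG box. Promoter sequence from RefSeq on GRCm38.p6 was matched for 37 of the 40 members, and Actb, Cttn and Coro1b were not matched. The 250 bases before the RefSeq start were searched on both strands, a search chosen after the values had been seen. A CArG box was found in 3 of 37 members (8.11%) and in 439 of 27025 genes (1.62%). The 27025 genes were not limited to genes expressed in these cells. The 3 members, Actg1, Arpc4 and Myo1e, are printed 5′ to 3′ on the strand of the gene with the CArG box in capitals, Actg1 up to the base before its GENCODE start.
Actg1, chr11:120348543-120348745, minus strand: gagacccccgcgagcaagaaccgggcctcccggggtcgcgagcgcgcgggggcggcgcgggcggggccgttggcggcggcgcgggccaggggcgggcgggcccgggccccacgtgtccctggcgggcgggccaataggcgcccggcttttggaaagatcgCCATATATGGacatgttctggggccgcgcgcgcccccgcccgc
Arpc4, chr6:113377863-113378112, plus strand: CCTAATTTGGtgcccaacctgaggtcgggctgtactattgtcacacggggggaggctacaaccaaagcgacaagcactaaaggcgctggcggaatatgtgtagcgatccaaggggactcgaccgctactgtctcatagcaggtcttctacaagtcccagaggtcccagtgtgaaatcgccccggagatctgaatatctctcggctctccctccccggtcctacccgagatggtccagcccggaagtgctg
Myo1e, chr9:70207100-70207349, plus strand: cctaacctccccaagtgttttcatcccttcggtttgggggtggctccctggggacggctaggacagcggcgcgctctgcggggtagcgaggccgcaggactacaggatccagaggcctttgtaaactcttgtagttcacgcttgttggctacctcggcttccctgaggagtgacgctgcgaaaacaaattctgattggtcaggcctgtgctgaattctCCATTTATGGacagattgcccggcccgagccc
The box begins 90 bases before the RefSeq start in Actg1, 250 bases in Arpc4 and 32 bases in Myo1e. All 3 genes were lower in OC, as described below, as were 51.3% of the tested members and 32.1% of all tested genes. A match of letters is a description of the window and not a binding site, and a part of serum response factor was not tested. Of the other motifs searched, GGGCGG, the GC box, was in 25 members (67.6%) and in 35.4% of all genes. The E-box CACGTG was in 3 members (8.11%) and in 6.86% of all genes. TATAAA was in 3 members (8.11%) and in 14.3% of all genes, GAGGAAG, the letters that PU.1 prefers, in 2 (5.41%) and in 12.0%, and TGANTCA, the AP-1 site, in 1 (2.70%) and in 7.82%. A CArG box can hold TATAAA within it, and no other motif searched contains another.

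The comparison of OC with OCP asked how the machinery's transcripts differ between day 6 and day 3. Most of them were lower in OC, by modest amounts. Of the 40 members, 39 reached 1 RPKM in 3 or more libraries and were tested, as were 12301 genes in all, with limma on log2(RPKM + 1) and Benjamini-Hochberg adjustment over all of them at a threshold of 0.05. The exception, Enah, was below that level in every library. Of the 39, 20 fell in OC (51.3%), where 32.1% of all tested genes fell, and 6 rose (15.4%), where 23.5% of all tested genes rose. The remaining 13 did not pass. The median log2 fold change was -0.19 over the tested members and -0.05 over all tested genes.

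Differences were small for most members. A called difference of at least 1.5-fold on the log2(RPKM + 1) scale was seen for 6 members (15.4%), a share near the 13.3% of all tested genes with the same. Plek and Coro1a were the 2 that rose, and Cttn, Gsn, Actn1 and Actg1 the 4 that fell. In 30 of the 39 (76.9%) the OC libraries did not overlap the OCP libraries, 8 lying above and 22 below them, while the groups did not overlap for 62.7% of all tested genes. The summed level of the 40 members was 6567 to 6751 RPKM in OC and 7941 to 8179.5 RPKM in OCP, and they took 2.44% to 2.52% of the assigned reads in OC and 2.96% to 3.07% in OCP. The libraries of a group lay close together, with a median coefficient of variation over the tested members of 3.75% in OC and 4.14% in OCP, against 5.93% in OC and 6.64% in OCP over all tested genes. OC replicate 3 held the lowest OC value for 22 members, and OCP replicate 2 the highest OCP value for 21.

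**Figure D1:**
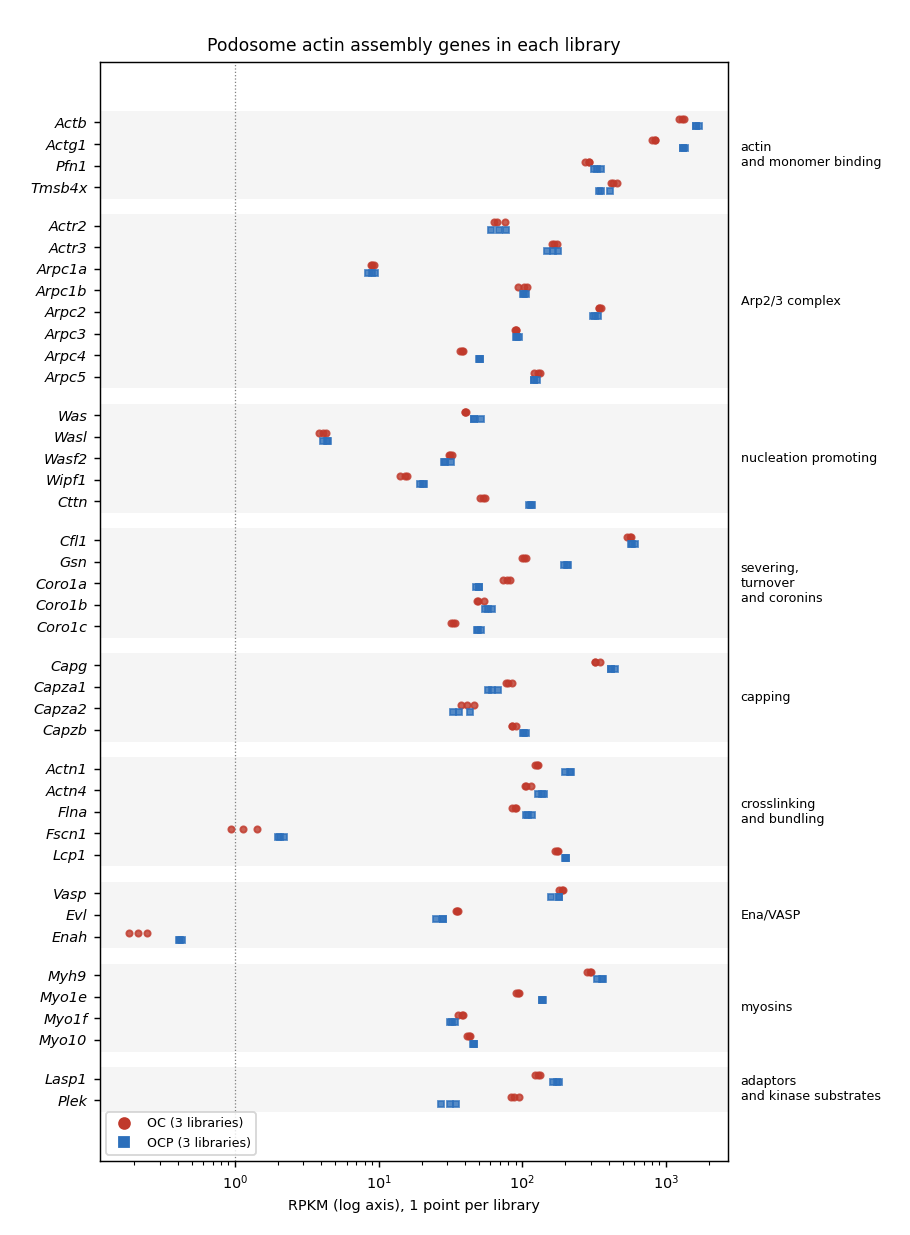
Level of each of the 40 members in every library, in RPKM on a log axis, with OC as circles and OCP as squares, grouped by role, and a dotted line at 1 RPKM. Actb and Actg1 lie at the top of the scale, Fscn1 and Enah at the bottom, and the OC circles lie wholly left of the OCP squares for 22 of the 39 tested members.

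**Figure D2:**
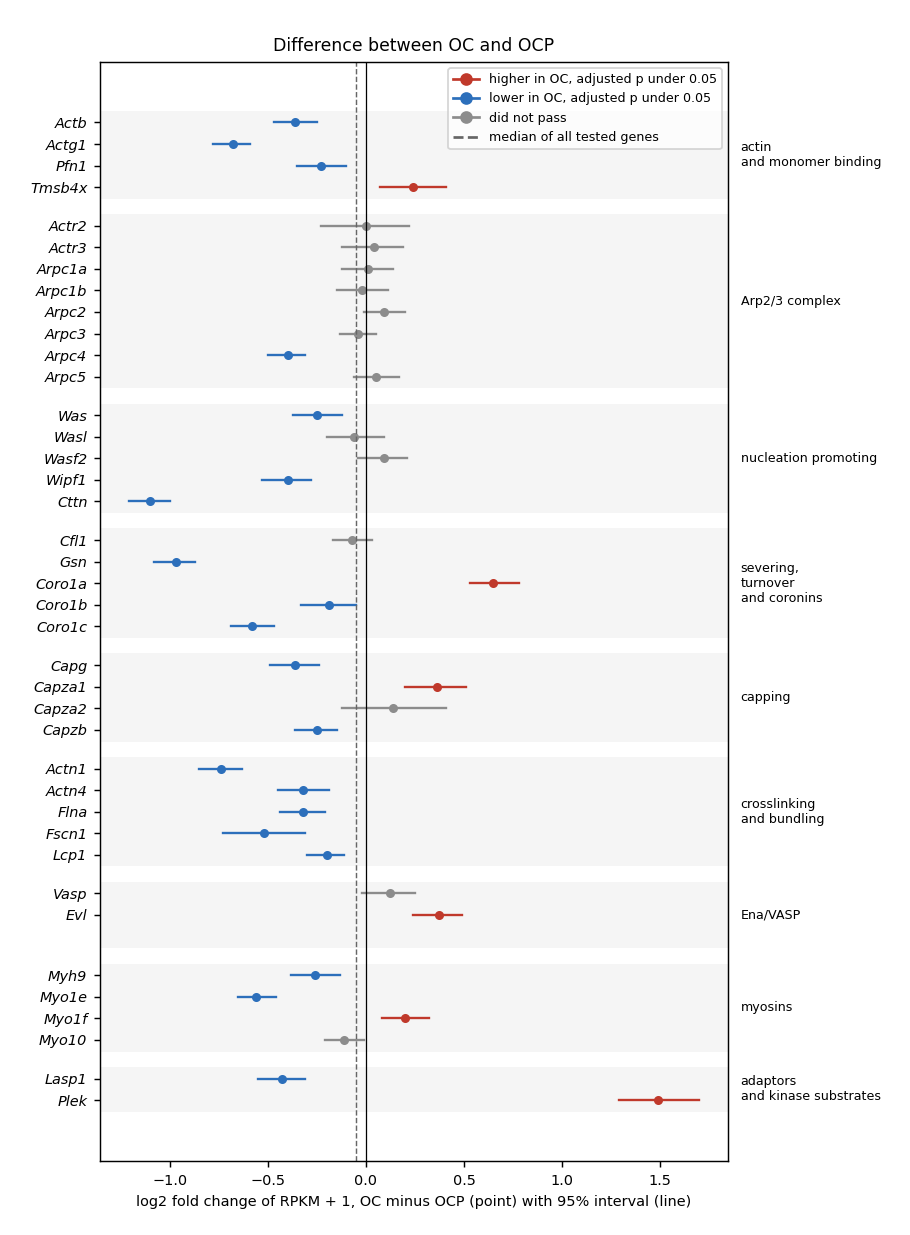
Log2 fold change of RPKM + 1, OC minus OCP, for the 39 tested members (points) with 95% intervals (lines), where red marks members that rose in OC, blue those that fell and grey those that did not pass. The dashed line is the median of all 12301 tested genes at -0.05, and 20 members are blue, 6 red and 13 grey.

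Transcripts of actin itself fell, and those of the main monomer-sequestering protein were slightly higher. All 3 other genes of actin and monomer binding besides thymosin were lower in OC, and the group's summed level was 2759 to 2885 RPKM in OC and 3609 to 3772 RPKM in OCP. Actb, the beta actin of the cell cortex and of podosome cores (chr5:142903115-142906754, minus strand), had 1287, 1328 and 1224.5 RPKM in OC replicates 1, 2 and 3, and 1612, 1712 and 1615 RPKM in OCP replicates 1, 2 and 3. Every OC library lay below every OCP library. The log2 fold change was -0.36 (SE 0.05), with an adjusted p of 3.8e-04 in limma. Actg1, the gamma actin (chr11:120345690-120348542, minus strand), had 837, 840.5 and 799 RPKM in OC and 1309.9, 1360.4 and 1309.7 RPKM in OCP. The groups were well apart, and the fall was the larger of the 2 actins, at -0.68 (SE 0.04, limma adjusted p 6.7e-06). Together the actins summed to 2105 ± 74.2 RPKM in OC and 2973 ± 86.1 RPKM in OCP.

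The Actg1 value carries some uncertainty. Its annotated span holds Gm23419 on the same strand, with an overlap of 83 bases. That short gene had 11761 to 13240 reads in the OC libraries and 20702 to 24237 in the OCP libraries, equal to 15.8% to 16.7% of the Actg1 reads of the same library in OC and to 16.1% to 16.5% in OCP. Pseudogene copies of Actg1 in the table, at least 85% identical over at least 50% of their length, held reads equal to 12.4% of its own, most of them in Gm12715, which is 99.6% identical. How reads that map to several places were counted is not given in the sources used here.

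Pfn1, profilin, which charges monomers for growth at the barbed end, was at 286 ± 8.85 RPKM in OC and 335 ± 19.5 RPKM in OCP and fell by 0.23 on the log2 scale (SE 0.05, limma adjusted p 7.1e-03). Tmsb4x, thymosin beta 4, which holds monomers in reserve, was at 434 ± 23.5 RPKM in OC and 369 ± 35.0 RPKM in OCP, a rise of 0.24 (SE 0.07, limma adjusted p 0.024). That call was lost when OC replicate 3 was left out, with an adjusted p of 0.073 in limma, and when OCP replicate 2 (0.075) or OCP replicate 3 (0.082) was left out. The summed level of Pfn1 and Tmsb4x was 719 ± 14.7 RPKM in OC and 704 ± 21.3 RPKM in OCP. Their summed RPKM per RPKM of actin was 0.342 ± 0.0185 in OC and 0.237 ± 0.0108 in OCP (SD, n = 3 each). This ratio, calculated after the values had been seen, is of transcripts and not of proteins. It leaves out Tmsb10, a related thymosin outside the 40, which rose to 282 ± 1.75 RPKM in OC against 179 ± 19.3 RPKM in OCP. The log2 fold change of Tmsb10 was 0.66 (SE 0.07, limma adjusted p 1.9e-04).

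The Arp2/3 complex, which starts a new filament as a branch on the side of an old one, differed little between OC and OCP. Of its 8 members in the list 1 fell, none rose and 7 did not pass, and their median log2 fold change was 0.00. Their summed level was 935 to 964 RPKM in OC and 890 to 974 RPKM in OCP, ranges that overlap. For the actin-related proteins themselves, which mimic the end of a filament, Actr2 averaged 68.8 ± 6.31 RPKM in OC and 69.1 ± 8.14 RPKM in OCP. Its log2 fold change was 0.00 with a 95% interval of -0.23 to 0.22, so a difference of that size in either direction could have gone unseen. Actr3 averaged 167 ± 6.26 RPKM in OC and 163 ± 13.9 RPKM in OCP, with an interval of -0.12 to 0.19. It made up 99.985% of Actr3 and Actr3b in OC and 99.966% in OCP (exact two-sided permutation p = 0.2).

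Arpc2, a subunit of the structural core and the most abundant of the 8 (chr1:74236084-74268209, plus strand), had 341, 352 and 342 RPKM in OC and 337, 311 and 323 RPKM in OCP. The OC libraries all lay above the OCP libraries, but by little, and the log2 fold change of 0.09 (SE 0.04) did not pass in limma, with an adjusted p of 0.11. It passed with TMM factors (adjusted p 0.031 in limma), in voom on the recovered reads (0.034) and without OCP replicate 1 (0.042). Arpc4, which forms the core with Arpc2, was the subunit that fell, at 37.9 ± 0.972 RPKM in OC and 50.5 ± 0.443 RPKM in OCP, a log2 fold change of -0.40 (SE 0.04, limma adjusted p 1.1e-04). Arpc4 overlaps Ttll3 on the same strand over 12.2% of its length, where Ttll3 averaged 1.009 RPKM. Arpc3, at 90.1 ± 0.299 RPKM in OC and 92.4 ± 2.04 RPKM in OCP, and Arpc5, at 127 ± 6.33 RPKM in OC and 123 ± 3.86 RPKM in OCP, did not pass.

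The complex is assembled with alternative subunits. Arpc1b, the form prominent in blood cells, averaged 102 ± 6.93 RPKM in OC and 103 ± 2.52 RPKM in OCP, and Arpc1a averaged 9.03 ± 0.208 RPKM in OC and 8.98 ± 0.491 RPKM in OCP. Neither passed. Arpc1b made up 91.8% ± 0.704 of the pair in OC and 92.0% ± 0.237 in OCP (exact two-sided permutation test, p = 0.9). Arpc1b overlaps the opposite-strand gene Pdap1 over 18.2% of its length. Pdap1 averaged 64.6 RPKM, with up to 14855 reads in a library, and strand use in counting is not given. Arpc5l, the alternative to Arpc5, is outside the 40 and rose to 8.52 ± 0.197 RPKM in OC against 4.65 ± 0.175 RPKM in OCP, a log2 fold change of 0.75 (SE 0.05, limma adjusted p 1.5e-05). Arpc5 accounted for 93.7% ± 0.334 of that pair in OC and 96.3% ± 0.0925 in OCP, the libraries not overlapping (exact two-sided permutation p = 0.1). With 3 libraries against 3 the smallest p this test allows is 0.1, so no share can pass at 0.05, and over the 14 shares tested a p of 0.1 became 0.127 after Benjamini-Hochberg adjustment.

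Of the 5 nucleation-promoting members, which switch the Arp2/3 complex on, 3 fell and 2 did not pass, with a median log2 fold change of -0.25. Cttn, cortactin, which binds the complex and holds branches in place and is a substrate of Src (chr7:144435733-144471009, minus strand), had 53.1, 55.04 and 50.7 RPKM in OC and 112, 116 and 116 RPKM in OCP. Each OC library was below every OCP library by a wide margin, and the ratio of means, OC over OCP, was 0.462. The log2 fold change was -1.10 (SE 0.05, limma adjusted p 8.7e-07), and no member fell further. Hcls1, the cortactin relative of blood cells outside the 40, rose to 1358.5 ± 81.3 RPKM in OC against 1054 ± 55.8 RPKM in OCP (log2 fold change 0.37, SE 0.06, limma adjusted p 1.2e-03). Cttn was therefore 3.75% ± 0.0797 of the summed level of both in OC and 9.83% ± 0.314 in OCP, a share calculated after the values had been seen and not tested.

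Was, the WASP of blood cells that sits at the podosome core, averaged 40.1 ± 0.518 RPKM in OC and 47.9 ± 3.08 RPKM in OCP and fell by 0.25 on the log2 scale (SE 0.05, limma adjusted p 5.3e-03). Wipf1, the partner that binds WASP and protects it, averaged 15.1 ± 0.786 RPKM in OC and 20.2 ± 0.777 RPKM in OCP, with a log2 fold change of -0.40 (SE 0.06, limma adjusted p 4.7e-04). Wasl, the widely expressed N-WASP, was at 4.10 ± 0.241 RPKM in OC and 4.29 ± 0.166 RPKM in OCP and did not pass (95% interval of the log2 fold change -0.20 to 0.09). Was made up 90.7% ± 0.597 of Was and Wasl in OC and 91.7% ± 0.751 in OCP, with overlapping libraries (exact two-sided permutation p = 0.2). Wasf2, the WAVE that drives sheet-like protrusion, was at 31.7 ± 0.778 RPKM in OC and 29.8 ± 1.68 RPKM in OCP and did not pass either (interval -0.04 to 0.21).

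Among the 5 severing, turnover and coronin genes 1 rose, 3 fell and 1 did not pass. Cfl1, cofilin, the chief depolymerising protein of the filament and the most abundant of the 5 (chr19:5490455-5495201, plus strand), had 569, 560 and 538 RPKM in OC and 567, 607 and 576 RPKM in OCP. The groups overlapped and the log2 fold change of -0.07 (95% interval -0.17 to 0.03) did not pass in limma (adjusted p 0.22). Gsn, gelsolin, which severs filaments on a calcium signal and was long known as a podosome component of osteoclasts (chr2:35256380-35307892, plus strand), had 106, 102 and 99.5 RPKM in OC and 195, 208.5 and 204 RPKM in OCP. The lowest OCP library was well above the highest OC library. The ratio of means, OC over OCP, was 0.507 and the log2 fold change -0.97 (SE 0.05, limma adjusted p 1.9e-06). Scin, the related severing protein scinderin outside the 40, also fell, to 141 ± 2.12 RPKM in OC against 213 ± 5.81 RPKM in OCP (log2 fold change -0.59, SE 0.04, limma adjusted p 1.4e-05).

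The 3 coronins, which help to debranch and recycle filaments, moved apart. Coro1a, the coronin of blood cells (chr7:126699773-126707787, minus strand), had 82.3, 78.4 and 73.3 RPKM in OC and 47.4, 49.98 and 50.2 RPKM in OCP. All 3 OC libraries were higher, and the log2 fold change was 0.65 (SE 0.05, limma adjusted p 3.4e-05). Coro1c, a widely expressed relative (chr5:113842436-113908758, minus strand), had 32.7, 34.0 and 31.9 RPKM in OC and 49.1, 51.3 and 48.2 RPKM in OCP, the reverse order. Its log2 fold change was -0.58 (SE 0.05, limma adjusted p 3.2e-05), and it overlaps the opposite-strand gene Gm17122 over 372 bases, where Gm17122 averaged 264 RPKM. Coro1b averaged 50.7 ± 2.91 RPKM in OC and 58.1 ± 3.31 RPKM in OCP, a fall of 0.19 (SE 0.06, limma adjusted p 0.026). The Coro1b call did not hold without OC replicate 2 or 3 (limma adjusted p 0.081 and 0.082) or without OCP replicate 2 or 3 (0.079 and 0.069). With TMM factors it was also lost (0.086).

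Coro1a was 48.2% ± 0.540 of the summed coronin level in OC and 31.4% ± 0.701 in OCP. Coro1c made up 20.4% ± 0.877 of it in OC and 31.6% ± 0.803 in OCP, and Coro1b 31.4% ± 0.730 in OC and 37.0% ± 0.761 in OCP. For each of the 3 the libraries of both groups did not overlap (exact two-sided permutation p = 0.1 each, the smallest possible). The order in OC was Coro1a, Coro1b, Coro1c, and in OCP Coro1b was above the other two, which did not differ beyond their spread.

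Capping proteins, which block the barbed end and keep filaments short, split as well, with 1 rise, 2 falls and 1 that did not pass. Capg, the macrophage capping protein of the gelsolin family (chr6:72544391-72562983, plus strand), had 350, 319 and 321 RPKM in OC and 415, 444 and 413 RPKM in OCP. Its OC libraries were all lower, with a log2 fold change of -0.36 (SE 0.05, limma adjusted p 7.0e-04). Of the heterodimer, the alpha subunit Capza1 rose to 80.3 ± 4.09 RPKM in OC against 62.5 ± 5.20 RPKM in OCP (log2 fold change 0.36, SE 0.07, limma adjusted p 2.6e-03). Pseudogene copies of Capza1 held reads equal to 4.91% of its own. The opposite-strand gene St7l overlaps 4.4% of the length of Capza1 and averaged 7.05 RPKM. The beta subunit Capzb fell to 86.7 ± 2.99 RPKM in OC against 104 ± 2.69 RPKM in OCP (log2 fold change -0.25, SE 0.04, limma adjusted p 1.8e-03). Capza2, the other alpha subunit, averaged 41.7 ± 4.52 RPKM in OC and 37.7 ± 5.35 RPKM in OCP and did not pass (95% interval -0.12 to 0.41). Capza1 was 65.9% ± 1.29 of the alpha subunits in OC and 62.5% ± 1.35 in OCP (exact two-sided permutation p = 0.1, the smallest possible).

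All 5 crosslinking and bundling members fell, and in each the OC libraries lay below the OCP libraries. Lcp1, L-plastin, which bundles filaments in blood cells (chr14:75131101-75230842, plus strand), had 178, 169 and 175 RPKM in OC and 200.5, 200.9 and 200.1 RPKM in OCP. The gap was small against its level, with a log2 fold change of -0.20 (SE 0.04, limma adjusted p 3.0e-03). Lcp1 overlaps the opposite-strand gene Gm15629 over 219 bases, and Gm15629 averaged 338 RPKM, with up to 7392 reads in a library. Actn1, the alpha-actinin that crosslinks the podosome cloud (chr12:80167542-80260371, minus strand), had 128, 123 and 127 RPKM in OC and 198, 216 and 218 RPKM in OCP. On the log2(RPKM + 1) scale it fell by 0.74 (SE 0.05, limma adjusted p 1.1e-05), and the ratio of means, OC over OCP, was 0.596. Its position in the table differs from that in GENCODE M21. Actn4, the second non-muscle alpha-actinin, averaged 109 ± 5.06 RPKM in OC and 136 ± 7.16 RPKM in OCP (log2 fold change -0.32, SE 0.06, limma adjusted p 1.7e-03). Actn1 was 53.6% ± 0.973 of both alpha-actinins in OC and 60.8% ± 0.368 in OCP, without overlap (exact two-sided permutation p = 0.1, the smallest possible).

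Flna, filamin A, which joins filaments at wide angles and ties them to integrins, averaged 88.0 ± 3.20 RPKM in OC and 111 ± 5.11 RPKM in OCP, a log2 fold change of -0.32 (SE 0.05, limma adjusted p 9.2e-04). Fscn1, fascin, which packs filaments into tight bundles and marks mature dendritic cells (chr5:142960343-142973185, plus strand), had 1.42, 1.14 and 0.941 RPKM in OC and 2.21, 2.06 and 2.01 RPKM in OCP. It was the lowest tested member and had the widest relative spread in OC, with a coefficient of variation of 20.7%. The log2 fold change was -0.52 (SE 0.09, limma adjusted p 1.8e-03), a value that the pseudocount of 1 pulls towards 0 at such levels, and the ratio of means, OC over OCP, was 0.559.

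**Figure D3:**
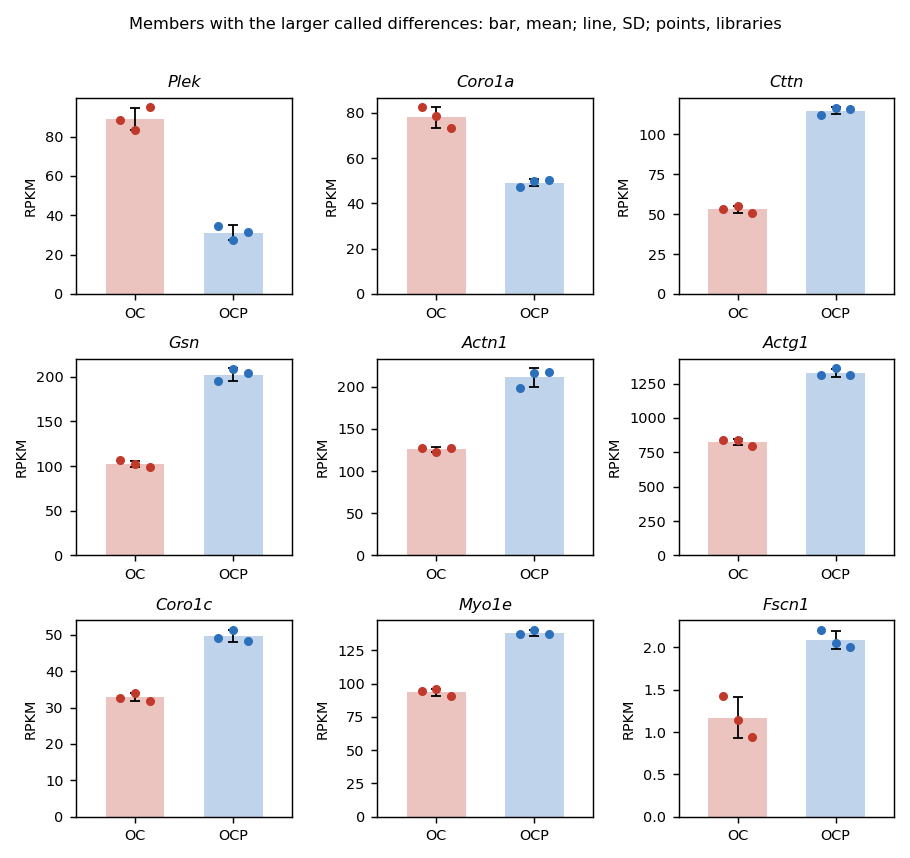
RPKM of the 9 members with an absolute log2 fold change of at least 0.5 among those called, with bars for the mean, lines for the SD, points for the 3 libraries and OC left of OCP in each panel. Plek and Coro1a have higher OC bars and the other 7 have lower ones, and in no panel do the points of both groups overlap.

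The Ena/VASP proteins, which ride on growing barbed ends and delay their capping, did not fall as a group. Vasp (chr7:19256929-19271817, minus strand) had 190, 193 and 182 RPKM in OC and 160, 179.9 and 182 RPKM in OCP. The lowest OC library, at 181.74 RPKM, lay barely above the highest OCP library, at 181.65 RPKM, and the log2 fold change of 0.12 (95% interval -0.02 to 0.25) did not pass in limma (adjusted p 0.12). Evl, the relative abundant in blood cells, rose to 35.2 ± 0.455 RPKM in OC against 27.1 ± 1.72 RPKM in OCP (log2 fold change 0.37, SE 0.05, limma adjusted p 7.5e-04). The opposite-strand gene Degs2 overlaps 18.0% of the length of Evl and averaged 2.73 RPKM. Enah, the Mena of nerve and epithelium, was at 0.212 ± 0.0309 RPKM in OC and 0.419 ± 0.0117 RPKM in OCP, under the filter. Tested with no filter on low values, it fell by 0.23 on the log2(RPKM + 1) scale (SE 0.05, limma adjusted p 0.02). Vasp made up 84.2% ± 0.280 of the family's summed level in OC and 86.3% ± 0.155 in OCP. Evl made up 15.7% ± 0.278 of it in OC and 13.5% ± 0.144 in OCP, and Enah 0.0948% ± 0.0129 in OC and 0.209% ± 0.0207 in OCP (exact two-sided permutation p = 0.1 each, the smallest possible).

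Of the 4 myosins 1 rose, 2 fell and 1 did not pass. Myh9, the heavy chain of non-muscle myosin IIA and the motor of the podosome cloud (chr15:77760587-77842175, minus strand), had 296, 303 and 280.5 RPKM in OC and 330, 363 and 358 RPKM in OCP. The OC libraries were all lower, with a log2 fold change of -0.26 (SE 0.05, limma adjusted p 3.9e-03). Myo1e, a long-tailed class I myosin that links membrane to actin (chr9:70207350-70399766, plus strand), had 94.1, 95.6 and 90.4 RPKM in OC and 137, 140.3 and 137 RPKM in OCP. It fell by 0.56 (SE 0.04, limma adjusted p 2.0e-05). Myo1f, its close relative of blood cells, rose instead, to 37.7 ± 1.55 RPKM in OC against 32.6 ± 1.29 RPKM in OCP (log2 fold change 0.20, SE 0.05, limma adjusted p 0.010). Myo1f was 28.8% ± 0.416 of both in OC and 19.1% ± 0.401 in OCP, with no overlap (exact two-sided permutation p = 0.1, the smallest possible). Myo10, which carries cargo to filopodial tips, averaged 42.4 ± 1.10 RPKM in OC and 45.9 ± 0.217 RPKM in OCP. Its OC libraries were all lower, but its log2 fold change of -0.11 missed the threshold in limma (adjusted p 0.052).

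**Figure D4:**
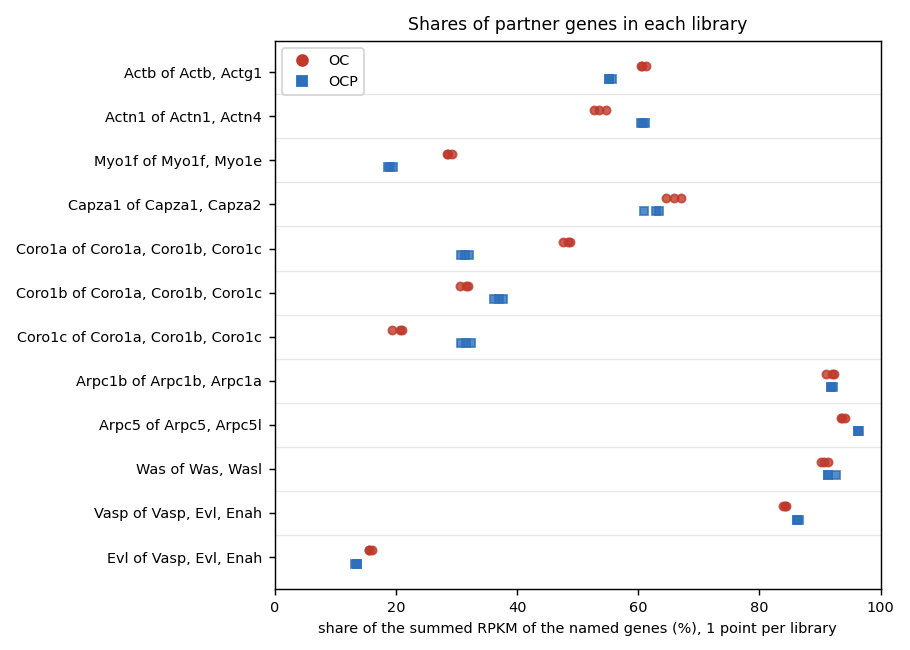
Share of each gene in the summed RPKM of the partner genes named on the vertical axis, in % for each library, with OC as circles and OCP as squares. Coro1a and Myo1f take larger shares in OC than in OCP, Coro1c and Actn1 smaller ones, and the shares of Arpc1b and Was overlap between the groups.

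The 2 remaining members moved in opposite directions. Lasp1, which binds F-actin and zyxin at adhesions and podosomes (chr11:97799000-97838764, plus strand), had 128, 132 and 122.5 RPKM in OC and 164, 179 and 174 RPKM in OCP. The groups did not overlap, and the log2 fold change was -0.43 (SE 0.05, limma adjusted p 2.2e-04). Plek, pleckstrin, the main substrate of protein kinase C in platelets and also found in macrophages (chr11:16971206-17052381, minus strand), had 88.3, 83.6 and 95.01 RPKM in OC and 34.7, 27.2 and 31.3 RPKM in OCP. Every OC library lay above the OCP libraries by a wide gap, the ratio of means, OC over OCP, being 2.86. The log2 fold change of 1.49 (SE 0.09, limma adjusted p 7.2e-06) exceeded that of any other member in size. Pf4, the platelet marker named above, rose too, with a log2 fold change of 1.28 (SE 0.04, limma adjusted p 1.6e-07). Of the other 6 platelet and megakaryocyte markers with a row, none reached 1 RPKM in any library. The highest value among them was 0.633 RPKM in OC, for Ppbp, and 0.389 RPKM in OCP, for Gp1ba.

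Within a family of partners, the share of beta actin changed as well. Actb was 60.6%, 61.2% and 60.5% of both actins in OC and 55.2%, 55.7% and 55.2% in OCP. The libraries did not overlap and the difference of 5.42 percentage points had an exact two-sided permutation p of 0.1, the smallest possible. In all, 11 of the 14 shares tested did not overlap between the groups, where the levels of 62.7% of all tested genes did not overlap. That is a rate for levels of single genes, and none was calculated for shares of other genes. The shares within the coronins depend on one another, as do those within Ena/VASP. The shares are of levels per gene length. Counted as reads instead, the Coro1b share no longer differed, by 0.0926 percentage points in place of -5.63.

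Genes of the same pathway outside the 40 were counted in 6 lists. The counts, here and in the paragraphs below, stand beside 32.1% of all tested genes that fell and 23.5% that rose. Of the other actins and paralogs 23 of 40 were tested, and 5 rose and 9 fell. Their median log2 fold change was -0.03, and without OC replicate 1 the number that rose was 3. Flnc, filamin C, fell to 1.09 ± 0.146 RPKM in OC against 4.01 ± 0.244 RPKM in OCP. Arpc5l, given above, was the other gene of this list with the greatest change. Of the 8 subunits of the WAVE regulatory complex, which holds WAVE proteins inactive until Rac binds, 2 rose and 2 fell, and 1 rose without OC replicate 1 or 2. Cyfip2, a Rac-binding subunit, fell to 9.60 ± 0.240 RPKM in OC against 16.2 ± 0.167 RPKM in OCP. Its more abundant relative Cyfip1 rose, to 24.7 ± 0.299 RPKM in OC against 21.6 ± 0.920 RPKM in OCP (log2 fold change 0.18, SE 0.05, limma adjusted p 0.012). Abi2, an adaptor subunit, was at 1.66 ± 0.0990 RPKM in OC and 0.784 ± 0.0216 RPKM in OCP. Abi2, 1 of the 2 counted as rising, reached the filter of 1 RPKM through OC alone, and with no filter the count was also 2.

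The formins nucleate unbranched filaments, as in the podosome cloud. Of 11 tested formins 2 rose and 7 fell, and their median log2 fold change was -0.32. Fmnl1, the most abundant formin, was at 58.8 ± 1.52 RPKM in OC and 56.5 ± 4.05 RPKM in OCP and did not pass. Diaph1, the next, rose to 56.4 ± 3.05 RPKM in OC against 45.6 ± 1.68 RPKM in OCP. Its log2 fold change was 0.30 (SE 0.05, limma adjusted p 2.1e-03). Diaph2 rose to 5.88 ± 0.432 RPKM in OC against 3.54 ± 0.380 RPKM in OCP. Inf2, which also severs filaments, fell to 21.2 ± 0.711 RPKM in OC against 38.6 ± 3.03 RPKM in OCP, and Fhod3, best known from heart muscle, to 4.12 ± 0.131 RPKM in OC against 7.21 ± 0.177 RPKM in OCP. Of 16 tested genes of the cofilin pathway 2 rose and 5 fell, and 3 fell when any OC library, or OCP replicate 3, was left out. The 2 named by size, Twf2, twinfilin 2, and Arpin, an inhibitor of the Arp2/3 complex, both fell. Twf2 was at 27.3 ± 0.764 RPKM in OC and 48.6 ± 2.40 RPKM in OCP, and Arpin at 22.8 ± 0.639 RPKM in OC and 37.9 ± 1.10 RPKM in OCP.

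Of 25 podosome kinases and scaffolds 9 rose and 9 fell, and their median log2 fold change was -0.06. Fyb had the largest rise, to 125 ± 2.47 RPKM in OC against 78.0 ± 0.909 RPKM in OCP (log2 fold change 0.68, SE 0.04, limma adjusted p 5.4e-06). The 2 genes named by size both fell. Pstpip1, which bends membrane and binds WASP, fell to 559 ± 31.5 RPKM in OC against 1028 ± 60.7 RPKM in OCP. Src, the kinase that osteoclasts need for their ruffled border and actin ring, fell to 46.9 ± 1.34 RPKM in OC against 83.9 ± 4.03 RPKM in OCP, a log2 fold change of -0.82 (SE 0.05, limma adjusted p 6.7e-06).

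Serum response factor, its cofactors and textbook targets outside the 40 had 13 tested genes, of which 1 rose and 8 fell. Their median log2 fold change was -0.57. Of the 8 falls, 2 (Cnn3 and Cyr61) were of genes that reached 1 RPKM in OCP alone, and the count was 6 when any OCP library was left out and 8 with no filter. Cnn2, calponin 2, fell to 4.92 ± 0.425 RPKM in OC against 10.3 ± 0.431 RPKM in OCP, and Fhl2, a LIM-only cofactor, to 0.978 ± 0.153 RPKM in OC against 2.80 ± 0.242 RPKM in OCP. Srf itself fell to 7.28 ± 0.471 RPKM in OC against 9.44 ± 0.507 RPKM in OCP (log2 fold change -0.33, SE 0.06, limma adjusted p 2.7e-03). The lists were described by their counts, and no difference between them and the rest of the genes was tested.

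**Figure D5:**
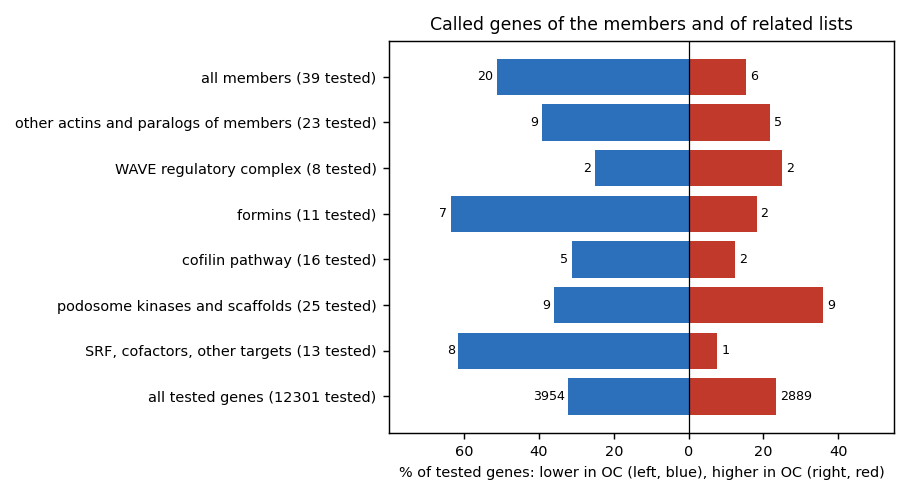
Percentage of tested genes that fell in OC (bars to the left) and rose in OC (bars to the right) in the 40 members, in 6 related lists and among all 12301 tested genes, with the number of genes beside each bar. All tested genes had 3954 falls and 2889 rises, and the formins and the serum response factor list have the longest bars to the left.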

How the data were processed

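Total RNA of 3 OC and 3 OCP libraries was prepared with a stranded mRNA kit, per the labels' protocols. The authors deposited RPKM values per gene with coordinates and a gene length, per the file headers. Trimmomatic 0.36, STAR 2.5.3a and featureCounts are named in the submitters' processing notes. The notes name GRCh38, but 37 of 40 members have the start and end of GENCODE M21 (GRCm38), the build used for positions. Strand use, multiple mapping and duplicate removal are not given in the sources used here. RPKM times length gave whole reads for 100% of values within 0.01.

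Genes reaching 1 RPKM in 3 or more libraries were compared on log2(RPKM + 1) in limma 3.58.1 with trend and robust options (R 4.3.3, statmod 1.5.0), all 6 libraries in 1 fit without covariates, OC minus OCP, two-sided. A fold change on this scale understates the change of low genes. The limma fit was run on simulated reads with a fixed spread and far fewer changed genes than were called here. Its outcome is not reported here. Pseudogene copies were matched with blastn 2.17.0. Plots were made with matplotlib 3.10.9 and tables with pandas 2.3.3 and numpy 2.4.6 in Python 3.11.15. The alternatives were a pseudocount of 0.1, TMM factors, quantile normalization, no filter, a mean RPKM of 5 or more, the fit without trend and robust options, a replicate block, voom on recovered reads, and each replicate left out.

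Members and lists were chosen with earlier results of these data known. All members were named. Each library's value was given for the most abundant member of each role and for called members with an absolute log2 fold change of at least 0.5. Of each related list the 2 called genes with the largest change were named, and of each list of other cells the most abundant. Some results of these lists are not reported here. Adgre1, Itgam, Cd14, Mertk, Fmnl1, Diaph1, Diaph2, Hcls1, Scin, Srf, Tmsb10, Cyfip1 and Fyb were named after their values were seen. So were the low platelet markers, the genes that passed the filter through a single group and the overlapping genes.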

Additional observations from a re-analysis of the deposited data

How the results depend on the processing

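Of the 26 called members 24 kept their call and direction in every one of the 14 settings in which they were tested, and no member reversed. Tmsb4x also lost its call with no filter and under quantile normalization, and Coro1b with no filter, under quantile normalization and with the replicate block (limma adjusted p 0.052). Wasf2 and Cfl1 passed under quantile normalization, and Vasp in voom. With a mean of at least 5 RPKM, 1645 of all tested genes rose in OC in place of 2889, and 2904 fell in place of 3954. Rises were thus lost more than falls, while 6 members rose and 19 fell at that filter. The shares of 32.1% that fell and 23.5% that rose are of all tested genes, low ones included. Without the 11 members that overlap another gene, a setting added after seeing the data, 2 members rose and 15 fell. For the 6 related lists the counts moved by at most 2 genes, except that 4 genes of the serum response factor list fell with a mean of at least 5 RPKM, where fewer genes are tested. With TMM factors, which moved the median of all tested genes by 0.04, 3280 rose and 3446 fell. Deviations from the group mean correlated at -0.115, 0.143 and 0.0142 between same-numbered libraries, and at -0.278 to 0.257 between differently numbered ones. With 3 libraries per group these values cannot settle whether the replicate numbers pair the libraries. The block left 6 members higher and 19 lower in OC. Depth limits Fscn1 and Enah most, with at least 108 and 137 reads in each library.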
